A study of Arabidopsis thaliana with 18 samples.

Results

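The cysteine-rich receptor-like kinases (CRKs) of Arabidopsis thaliana were examined in seedlings of wild type (WT) and of the pold2 mutant. The members were 41 genes, CRK1 to CRK34 and CRK36 to CRK42, taken by their gene identifiers. Of these, 25 had a row among the 19858 genes of the RNA table and 16 were not analysed here. The family was chosen by its pold2 against WT ratios and calls in this same RNA table, with earlier results known, so the RNA counts and medians describe the members and support nothing beyond them. POLD2 encodes the second subunit of DNA polymerase delta, a polymerase that copies the genome. Both genotypes were of ecotype C24 and without treatment, and the labels give the mutant as pold2, with no further description of the allele. Whole seedlings were harvested at 10 days, after growth at 22°C under 23 h of light per day on medium with 20 g/L sucrose. Of 18 libraries, 6 were RNA-seq libraries, 3 per genotype. The RNA table gives 1 pooled value per genotype in FPKM (fragments scaled to transcript length and library size, a level per length), so no value has an SD or an n, and the depth is unknown. The q values printed below are the authors' p-values after Benjamini-Hochberg adjustment over all 19858 genes, and a gene was called at q under 0.05. The labels do not say whether the libraries came from separate cultures, so the q values may measure technical spread. Chromatin data were the WT peak lists for H3K27me3, H3K4me3 and H3K9me2, each from 1 library and thus without a replicate.

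Typical CRKs are plasma membrane proteins with an extracellular region of cysteine-rich DUF26 domains, a transmembrane helix and an intracellular serine/threonine kinase. Whether each member encodes all of these parts was not examined, and the loci of CRK9 (1065 bp) and CRK16 (1453 bp) were short. CRKs are known from work on immunity, cell death and the response to reactive oxygen species, and transcripts of several members accumulate after pathogen attack or salicylic acid treatment. Most of the genes sit side by side on chromosome 4, where tandem duplication produced arrays of similar copies. Here, a tandem cluster was a run of at least 3 members with at most 100 between successive locus numbers. By that rule 30 members fell into 3 clusters on chromosome 4. The largest ran from AT4G23130 (CRK5) to AT4G23320 (CRK24) with 20 members, and the other two ran from AT4G04490 (CRK36) to AT4G04570 (CRK40) and from AT4G11460 (CRK30) to AT4G11530 (CRK34) with 5 each. The remaining 11 members were dispersed, as 2 adjacent pairs and 7 single genes.

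The targeted gene was read first. POLD2 (AT2G42120, chromosome 2, 17563157 to 17566032, TAIR10) was at 7.21 FPKM in WT against 2.83 FPKM in pold2 and 2.55-fold lower by the authors' deposited table (q = 0.00103). Leaf and root were both represented. The small subunit gene of Rubisco, RBCS1A, was at 16839 FPKM in WT against 16515 FPKM in pold2, and the root gene PYK10 was at 1578 and 1853 FPKM. Of 4 leaf markers, 3 were lower and 0 higher in pold2, and of 7 listed root markers 1 was higher and 0 lower, by the q of the authors' deposited table, where 5.97% of all genes were called higher and 6.47% lower.

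CRK levels were low to moderate and spanned from under 1 to about 20 FPKM. In WT the lowest of the 25 was 0.288 FPKM (CRK7), the median 4.17 FPKM and the highest 21.0 FPKM (CRK21). In pold2 the lowest was 0.596 FPKM (CRK7), the median 4.73 FPKM and the highest 19.0 FPKM (CRK29). CRK7 was thus the lowest in both genotypes, while the top place went to a different gene in each. In WT, CRK21 was followed by CRK3 (16.8 FPKM), CRK10 (16.4 FPKM), CRK29 (15.8 FPKM), CRK2 (15.7 FPKM), CRK40 (14.6 FPKM) and CRK22 (12.8 FPKM). The same 7 genes were the top 7 in pold2. Without a value per library, it cannot be said which neighbours in this order differ beyond their spread. The 25 levels summed to 168.8 FPKM in WT and 191.9 FPKM in pold2, a ratio of 1.14. Every listed gene reached at least 0.501 FPKM in a genotype, so genes silent in both stay out of the table. Of the listed CRKs, 1 (CRK7) lay under that minimum in WT and was listed through its pold2 level alone, so a higher pold2 value was built into its listing. CRK4, at 0.503 FPKM in WT, lay just above it.

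**Figure D1:**
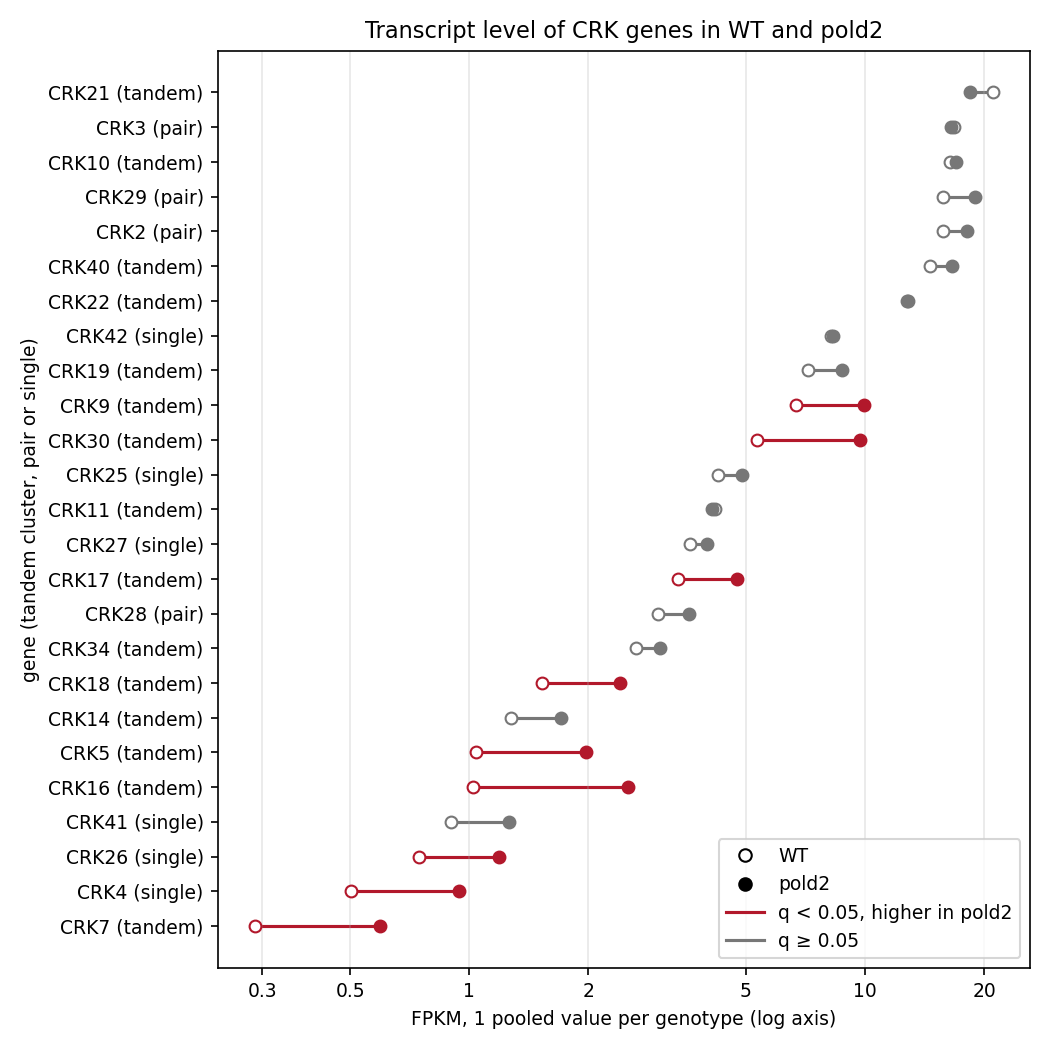
FPKM of the 25 listed CRK genes in WT (open circles) and pold2 (filled circles) on a log axis, 1 pooled value per genotype, ordered by WT level, with the position class in brackets. The 9 genes called higher in pold2 (red) were all under 10 FPKM in both genotypes, and the 7 genes of 10 FPKM or more in both genotypes were not called.

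Where a CRK was called, it was higher in pold2. Of the 25 listed CRKs, 9 were called higher and 0 lower in pold2 by the authors' deposited table, where 5.97% of all genes were called higher and 6.47% lower. Counted at p under 0.05 before adjustment, 13 were higher (11.5% of all genes) and 0 lower (12.5% of all genes) by the authors' deposited table. At q under 0.01 the counts were 6 (3.74% of all genes) and 0 (3.86%), and at q under 0.05 with at least 1.5-fold they were 7 (2.89%) and 0 (1.67%), by the authors' deposited table. The ratio of pold2 to WT was above 1 for 21 of the 25, and their median log2 ratio was 0.27, against -0.01 over all genes. Log2 ratios of single members ran from -0.19 (CRK21) to 1.30 (CRK16). In whole seedlings, more cells that express a gene and more RNA per cell cannot be told apart. CRKs are similar in sequence, above all within a tandem cluster, so the authors' counting could split reads between copies, and the values of single members are uncertain in that respect.

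The largest cluster held 6 of the 9 called genes. Of its 20 members 12 were listed, 6 were called higher and 0 lower by the authors' deposited table (5.97% and 6.47% of all genes), and the median log2 ratio of the 12 was 0.45. The listed members spanned 67.2 kb of chromosome 4, from 12117541 to 12184704 (TAIR10), and no other listed gene lay among them. At its start lie CRK5, CRK7 and CRK9. CRK5 (AT4G23130, 12117541 to 12120134), whose overexpression is known to heighten defence and cell death, was at 1.04 FPKM in WT against 1.97 FPKM in pold2. It was 1.89-fold higher by the authors' deposited table (q = 0.00103). CRK7 (AT4G23150, 12125731 to 12128332), known from mutants that are sensitive to extracellular reactive oxygen species, was at 0.288 FPKM in WT against 0.596 FPKM in pold2. Its ratio was 2.07-fold by the authors' deposited table (q = 0.0408) and the depth behind so low a WT level is unknown. CRK7 was listed through its pold2 level alone. CRK9 (AT4G23170, RefSeq symbol EP1, 12135093 to 12136157) has a locus of 1065 bp, the shortest of the 25, and went from 6.68 to 9.97 FPKM. That was 1.49-fold higher by the authors' deposited table (q = 0.00103).

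The next 3 listed genes were not called. CRK10 (AT4G23180), whose transcript is known to be induced by salicylic acid, was at 16.4 FPKM in WT against 16.9 FPKM in pold2 (q = 0.860 by the authors' deposited table). CRK11 (AT4G23190), another gene known to respond to salicylic acid, starts 110 bp after it and was at 4.17 FPKM in WT against 4.10 FPKM in pold2 (q = 0.941 by the authors' deposited table). CRK14 (AT4G23220) was at 1.27 FPKM in WT against 1.70 FPKM in pold2, with p = 0.0171 and q = 0.103 by the authors' deposited table. The 3 called genes before this stretch and the 3 after it are therefore separated by 3 listed genes that were not called.

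CRK16, CRK17 and CRK18 form the other group of called genes. CRK16 (AT4G23240, 12160502 to 12161954) had the largest ratio of the family, with 1.02 FPKM in WT and 2.51 FPKM in pold2. It was 2.46-fold higher by the authors' deposited table (q = 0.00103), a log2 ratio above that of 98.9% of all genes. CRK17 (AT4G23250, RefSeq symbol EMB1290, 12162004 to 12167026) begins 49 bp after CRK16, has a locus of 5023 bp and went from 3.37 to 4.73 FPKM. It was 1.40-fold higher by the authors' deposited table (q = 0.00103). CRK18 (AT4G23260, 12167354 to 12170086) follows after 327 bp and went from 1.53 to 2.40 FPKM, 1.57-fold higher by the authors' deposited table (q = 0.00103). The 3 loci lie so close together that reads near their borders could be assigned to either neighbour. CRK19 (AT4G23270), known to trigger cell death when overexpressed, was next at 7.18 FPKM in WT against 8.73 FPKM in pold2 (p = 0.0163, q = 0.0990 by the authors' deposited table). At the end of the listed stretch stood CRK21 (AT4G23290, 12177738 to 12180826), at 21.0 FPKM in WT against 18.4 FPKM in pold2 (q = 0.238), and CRK22 (AT4G23300), at 12.8 FPKM in both genotypes (q = 0.989), by the authors' deposited table. The cluster thus held the most expressed CRK in WT, the least expressed one and the one with the largest ratio.

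**Figure D2:**
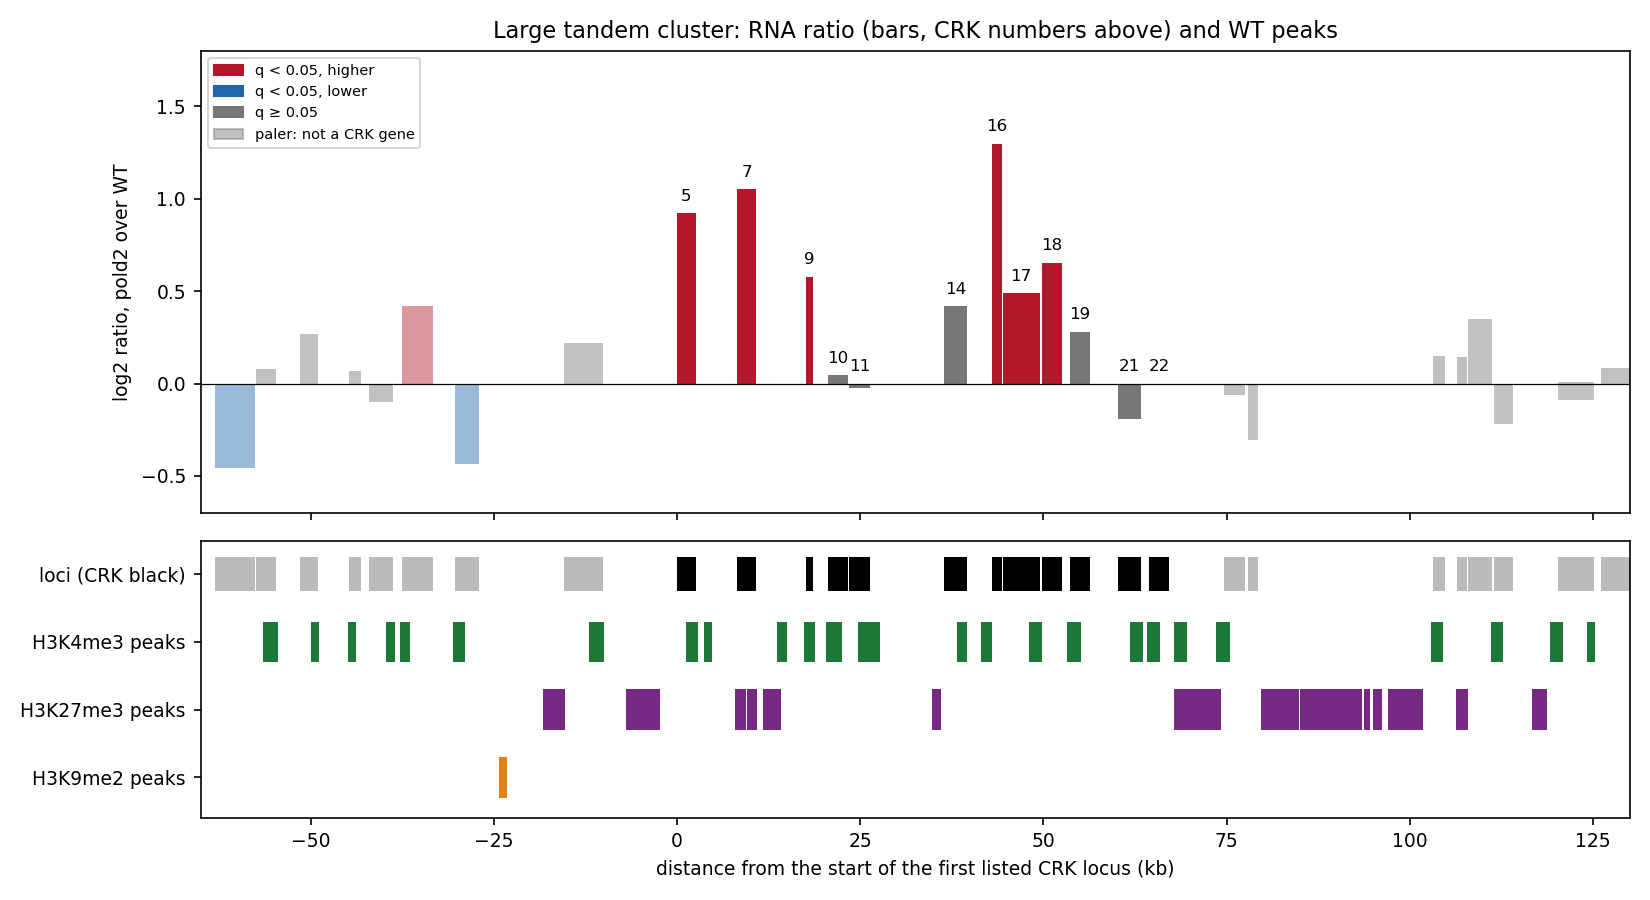
Upper panel, log2 ratio of pold2 over WT for each listed gene within 60 kb of the largest tandem cluster, with CRK numbers above the bars and paler bars for other genes. Lower panel, their loci and the WT peaks of 3 histone marks; distance is in kb from the start of CRK5. Called CRKs (red) stand in 2 groups of 3, split by CRK10, CRK11 and CRK14.

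Genes flanking the largest cluster were read in the same way. Of 17 other listed genes within 60 kb on either side, 1 was called higher and 2 lower by the authors' deposited table, with a median log2 ratio of 0.07. The 1 higher gene is 5.88% of the 17, near the 5.97% of all genes. The nearest before the cluster, GSH1 (AT4G23100, which makes a glutathione precursor), ends 10.1 kb away and was at 198.9 FPKM in WT against 231.7 FPKM in pold2 (q = 0.142 by the authors' deposited table). The nearest after it, AT4G23330, starts 7.41 kb away and was at 16.2 and 15.5 FPKM (q = 0.858 by the authors' deposited table). The gene called higher was AT4G23050 (1.34-fold, q = 0.00103), 33.3 kb before the cluster, and those called lower were IQD22 (AT4G23060, 1.35-fold lower, q = 0.00718) and AT4G23000 (1.37-fold, q = 0.0253), by the authors' deposited table. The count depends on the window, with 0 of 4 genes called higher within 30 kb and 3 of 32 within 100 kb. Whether the cluster differs from its surroundings was not tested.

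The 2 small clusters contributed 3 listed genes. CRK30 (AT4G11460, chromosome 4, 6964468 to 6967093) went from 5.32 in WT to 9.70 FPKM in pold2. It was 1.82-fold higher by the authors' deposited table (q = 0.00103), and its gain of 4.38 FPKM was the largest of the family. CRK34 (AT4G11530), the other listed member of that cluster, was at 2.64 FPKM in WT against 3.03 FPKM in pold2 (q = 0.461 by the authors' deposited table). Within 60 kb of this cluster, 1 of 19 other listed genes was called higher, the osmotin gene OSM34 (AT4G11650, 1.44-fold, q = 0.00103), and 1 lower, the serine racemase gene SR (AT4G11640, 1.53-fold, q = 0.00662), by the authors' deposited table. Over all genes, 5.97% were called higher and 6.47% lower. CRK40 (AT4G04570), the only listed member of the remaining cluster, was at 14.6 FPKM in WT against 16.6 FPKM in pold2 (q = 0.274 by the authors' deposited table).

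Among the dispersed members, 10 of 11 were listed, and 2 were called higher and 0 lower by the authors' deposited table (5.97% and 6.47% of all genes). CRK4 (AT3G45860, chromosome 3, 16863401 to 16866041), known to cause cell death when overexpressed, was at 0.503 FPKM in WT against 0.940 FPKM in pold2. It was 1.87-fold higher by the authors' deposited table (q = 0.0147). CRK26 (AT4G38830, chromosome 4, 18122326 to 18124943) went from 0.744 to 1.19 FPKM, 1.60-fold higher by the authors' deposited table (q = 0.0287). Both were under 1 FPKM in WT. None of the 4 genes in adjacent pairs was called. CRK2 (AT1G70520), a kinase known to phosphorylate the oxidase RBOHD, was at 15.7 FPKM in WT against 18.1 FPKM in pold2 (q = 0.222), and its neighbour CRK3 (AT1G70530) at 16.8 and 16.4 FPKM (q = 0.920), by the authors' deposited table. CRK28 (AT4G21400), known to associate with the co-receptor BAK1, was at 3.00 FPKM in WT against 3.60 FPKM in pold2 (q = 0.238 by the authors' deposited table). CRK29 (AT4G21410, chromosome 4, 11402314 to 11405056), 604 bp further on, was at 15.8 and 19.0 FPKM, with p = 0.0112 and q = 0.0765 by the authors' deposited table. The ratios of CRK28 and CRK29 were alike in size, at 1.20-fold and 1.21-fold by the authors' deposited table, at different levels.

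The other single genes were not called. CRK41 (AT4G00970) was at 0.900 FPKM in WT against 1.26 FPKM in pold2 (p = 0.0260, q = 0.136), and CRK42 (AT5G40380) at 8.19 and 8.32 FPKM (q = 0.938), by the authors' deposited table. CRK27 (AT4G21230) was at 3.60 and 3.98 FPKM (q = 0.592 by the authors' deposited table). CRK25 (AT4G05200) was at 4.24 FPKM in WT against 4.90 FPKM in pold2 (q = 0.707 by the authors' deposited table), and it is the only listed member whose locus is merged with that of another gene.

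Set side by side, 7 of the 15 listed tandem members and 2 of the 10 listed dispersed members were called higher (5.97% of all genes), and 0 of either class lower (6.47% of all genes), by the authors' deposited table. The 7 tandem members include CRK7, listed through its pold2 level alone. The median log2 ratio was 0.42 for tandem and 0.24 for dispersed members, and both classes ranged widely, from -0.19 to 1.30 and from -0.03 to 0.90. The dispersed range lay within the tandem range. The gap between the medians depends on how pairs and low values are treated. With adjacent pairs counted as tandem the medians were 0.27 and 0.34, and with 1 FPKM added to each value they were 0.25 and 0.20. The difference between the classes was not tested.

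Higher calls were more frequent among CRKs of low level, as among all genes of low level. Of 8 listed CRKs with a mean of WT and pold2 under 2 FPKM, 6 were called higher by the authors' deposited table, where 10.3% of all genes of that level were. These 6 include CRK7, listed through its pold2 level alone. Of 10 CRKs from 2 to under 10 FPKM, 3 were called higher (7.42% of all genes), and of 7 CRKs of 10 FPKM or more, 0 were (4.14% of all genes), by the authors' deposited table. Before adjustment, 1 of these 7 had p under 0.05, CRK29. None of the bands held a CRK called lower, against 1.93%, 4.31% and 8.75% of all genes from the lowest to the highest band. In the same order the median log2 ratio was 0.79, 0.24 and 0.04 for the CRKs and 0.16, 0.01 and -0.03 for all genes. These bands were chosen after the values were seen.

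**Figure D3:**
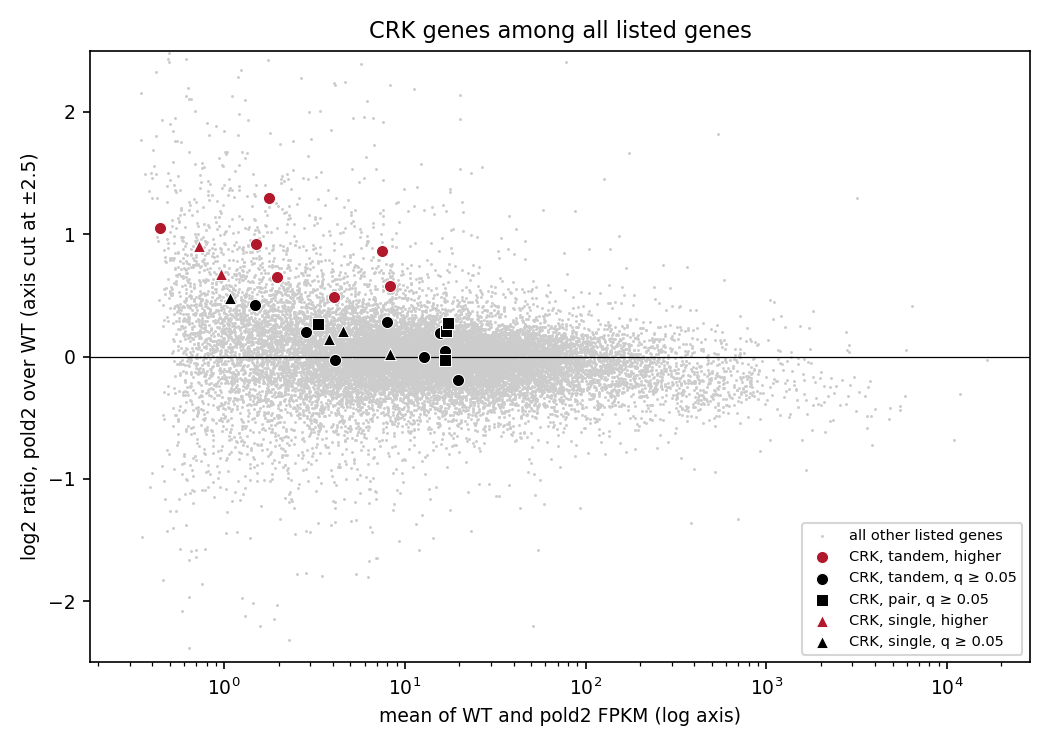
Log2 ratio of pold2 over WT against the mean FPKM (log axis) for all listed genes (grey) and the 25 listed CRKs, with shapes for tandem, paired and single genes and red for those called higher. Genes with a value of 0 and those beyond 2.5 on the log2 axis are not drawn; the CRKs of 10 FPKM or more lie between -0.19 and 0.27.

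Histone marks in WT were then read over the CRK loci. H3K4me3 marks active genes, H3K27me3 is set by Polycomb at repressed genes, and H3K9me2 marks silent heterochromatin. Of the 25 loci, 21 had an H3K4me3 peak over the locus or within 500 bp, where 86.4% of all genes did. An H3K27me3 peak lay over 5 of the 25 loci, where 15.3% of all genes had one, and an H3K9me2 peak over 0, where 0.68% of all genes had one. These counts are near those of all genes and are not a result about the CRKs.

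The 5 loci with H3K27me3 were unlike each other. CRK4 was covered in full by a peak of 3328 bp with the authors' score of 1498, which is higher than 96.1% of H3K27me3 peaks, and had no H3K4me3 peak. CRK7 was covered over 94.5% of its locus by 2 weaker peaks, the better with a score of 180.7, and had no H3K4me3 peak. CRK42 carried both marks, with H3K27me3 over 94.4% and H3K4me3 over 52.1% of the locus. CRK30 also carried both, but with low scores of 87.2 for H3K27me3 and 52.7 for H3K4me3, against median scores of 227.9 and 1514 in the 2 lists. CRK25 had an H3K27me3 peak of score 51.1 on a merged locus, so the peak cannot be given to CRK25 rather than to its partner, AT4G05190.

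Loci with H3K27me3 included called and uncalled CRKs, though the peak at the merged locus cannot be given to CRK25. CRK4, CRK7 and CRK30 were called higher, and CRK25 and CRK42 were not, by the authors' deposited table. CRK4 and CRK7 were also the 2 least expressed of the 25 in WT. H3K4me3 without H3K27me3 was found at 19 CRKs (78.8% of all genes), H3K27me3 without H3K4me3 at 3 (7.62%) and both at 2 (7.65%). Of the 19 CRKs with H3K4me3 alone, 6 were called higher by the authors' deposited table, where 3.57% of all genes with these marks were. Among all genes with H3K27me3 and no H3K4me3, 18.4% were called higher, and among those with both marks 14.8%, in that table. For the CRKs the counts were 2 of 3 and 1 of 2. The 3 include CRK7, listed through its pold2 level alone, and CRK25 on its merged locus. CRK28 was the only listed member with none of the 3 marks, where 5.97% of all genes had neither H3K4me3 nor H3K27me3.

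H3K4me3 scores varied widely among the CRKs, also between members of like level. CRK2, CRK3, CRK10, CRK26 and CRK40 each had a top peak with the score 3100, a value shared by 2053 peaks of that list. CRK26 was at 0.744 FPKM in WT, whereas the other 4 were at 14.6 to 16.8 FPKM. H3K4me3 covered 34.8% of the CRK26 locus, and its top peak of 1822 bp lay partly outside it. Of the other 4 loci, 58.1% to 70.2% was covered. CRK21, the most expressed member in WT, had a top score of 540.3, higher than 19.8% of H3K4me3 peaks. The peak at CRK16 covered 2.41% of its locus and otherwise lay between CRK14 and CRK16. CRK15, which was not analysed here, falls between these genes by identifier order. CRK18 was counted as marked through a peak that overlaps the neighbouring CRK17, runs past its end and stops within 500 bp of CRK18. CRK41 was counted through a peak within 500 bp that touches none of its locus.

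Genes that act with CRKs or resemble them were compared last, from lists that were drawn up with earlier results of these data known. Their counts of called genes stand beside 5.97% of all genes called higher and 6.47% called lower by the authors' deposited table. The plasmodesmata-located proteins share the DUF26 domains and lack the kinase. Of 8, 7 were listed and 1 was called higher, PDLP5, and 0 lower by the authors' deposited table, with a median log2 ratio of -0.09. PDLP5 (AT1G70690), a salicylic acid-linked regulator of plasmodesmata, went from 5.38 to 7.70 FPKM, 1.43-fold higher by the authors' deposited table (q = 0.00772). Of 11 listed pattern receptors and co-receptors, 4 were called higher and 0 lower by the authors' deposited table, with a median log2 ratio of 0.36. The flagellin receptor gene FLS2 (AT5G46330) was at 6.17 FPKM in WT against 7.92 FPKM in pold2, and 1.28-fold higher by the authors' deposited table (q = 0.0143). SERK4 (AT2G13790), a co-receptor gene, was 1.35-fold higher (q = 0.0133), and LYK5 (AT2G33580), a chitin receptor gene, 1.44-fold higher (q = 0.0147), by the authors' deposited table.

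Signalling and salicylate genes included genes called higher and none called lower, where 5.97% of all genes were called higher by the authors' deposited table. Of 13 genes for cytoplasmic kinases and NADPH oxidases, 2 were called higher and 0 lower by the authors' deposited table, with a median log2 ratio of 0.09. RBOHD (AT5G47910), the oxidase that CRK2 is known to phosphorylate, went from 21.7 to 28.9 FPKM, 1.33-fold higher by the authors' deposited table (q = 0.00188). MKK4 (AT1G51660), a kinase of the immune cascade, was 1.27-fold higher by the authors' deposited table (q = 0.0480). Of 13 genes of the salicylate pathway, 6 were called higher and 0 lower by the authors' deposited table, with a median log2 ratio of 0.40. The other 7 were not called, among them ICS1 (AT1G74710), also of salicylic acid synthesis, at 12.7 FPKM in both genotypes (q = 0.989 by the authors' deposited table). PBS3 (AT5G13320), an enzyme gene of salicylic acid synthesis, was 2.12-fold higher, the transcription factor genes SARD1 (AT1G73805) 1.87-fold and WRKY70 (AT3G56400) 1.40-fold higher (q = 0.00103 for each), by the authors' deposited table.

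Wall-associated kinases are another family of receptor-like kinases in a tandem cluster, with an extracellular region that binds pectin. Of 5, the 2 listed genes were called higher by the authors' deposited table (5.97% of all genes). WAK1 (AT1G21250) went from 15.6 to 31.1 FPKM, 1.99-fold higher, and WAK2 (AT1G21270) from 26.3 to 41.1 FPKM, 1.56-fold higher (q = 0.00103 for each), by the authors' deposited table. In pold2 both lay above the highest CRK level of 19.0 FPKM. Of 4 listed senescence markers 0 were called by the authors' deposited table, with 1 at an unadjusted p under 0.05 and a median log2 ratio of 0.13. The transcription factor gene ORE1 (AT5G39610) was at 32.4 FPKM in WT against 32.9 FPKM in pold2, and NAP (AT1G69490) at 14.5 and 14.4 FPKM. SAG12 was not analysed here.

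Some markers of plant parts were called beside these values. The 4 leaf markers summed to 27503 FPKM in WT and 23422 FPKM in pold2, with LHCA1 (AT3G54890) 1.65-fold, LHCB1.1 (AT1G29920) 1.49-fold and LHCB2.1 (AT2G05100) 1.41-fold lower (q = 0.00103 for each) by the authors' deposited table. RBCS1A, the most abundant of them, was not called (q = 0.979 by the authors' deposited table), and the leaf list had a median log2 ratio of -0.54. The 7 listed root markers summed to 1702 FPKM in WT and 2011 FPKM in pold2, with IRT1 (AT4G19690), whose protein takes up iron, 1.44-fold higher (q = 0.00103) by the authors' deposited table. PYK10, which carries most of that sum, was not called (q = 0.245 by the authors' deposited table), and EXP7, PRP3 and COBL9 had log2 ratios from -0.09 to -0.00433. The median log2 ratio of the 7 was 0.02. The part of these markers in the CRK values was not tested.

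**Figure D4:**
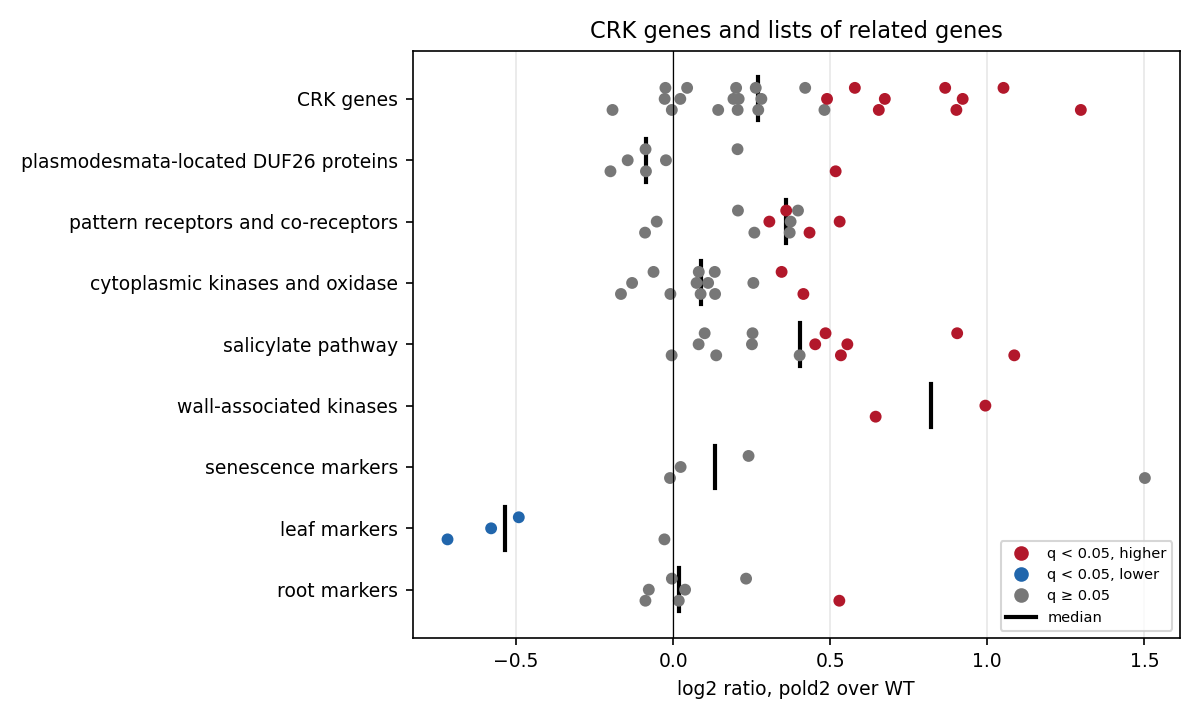
Log2 ratio of pold2 over WT for the 25 listed CRKs and the listed members of 8 other gene lists, 1 point per gene, with a bar at the median. The CRK median was 0.27, with 9 genes called higher (red), and 0 CRKs were called lower (blue).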

How the data were processed

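RNA levels were taken from the authors' deposited table, which per the file headers gives FPKM pooled to 1 value per genotype and a log2 ratio (positive where pold2 is higher). Its p-value and q-value columns were used as deposited; the q values equal a Benjamini-Hochberg adjustment over 19858 genes to within 5.28e-07, and 6 of the members share the smallest p of 5e-05. Without values per library no count model or limma fit was possible, so the case written for such a table, the authors' q under 0.05, was used. The submitters' processing notes name TopHat2 2.1.1, Cuffdiff 2.1.1, Bowtie 0.12.9, Bowtie2 2.0.5 and the TAIR10 build, without role or order; the plants were C24, whereas TAIR10 is the Columbia genome. Table starts were taken to count from 0, since of 19771 genes compared, start and end equalled the reference for 824 after adding 1 and for 18 as given, and most matched neither way. Coordinates printed here count from 1 and carry no strand.

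Each peak carries the authors' score, used as deposited, and its name starts with MACS. For the caller's version and control, the sources used here give none. Peak scores were used only within a list. Overlap of 1 bp or more with the locus counted as a mark, and for H3K4me3 the locus was widened by 500 bp on both sides.

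Names came from a RefSeq table of assembly TAIR10.1, which held 41 of the 41 members. The members, lists and classes were chosen with earlier results of these data known. All listed members are named; of other lists, up to 3 called genes by smallest q then size of change, or the 2 most expressed. OSM34, AT4G11640, other flanking genes, ICS1, SGR1 and SAG13 were named after their values were seen. Counts, medians, overlaps and the adjustment were tested on simulated data. Work used Python 3.11.15, pandas 2.3.3 and matplotlib 3.10.9. Bisulfite, H3, input and pold2 ChIP libraries were not analysed here.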

Additional observations from a re-analysis of the deposited data

How the results depend on the processing

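The 9 calls of higher CRKs became 6 at q under 0.01, 7 with a minimum of 1.5-fold, 13 at an unadjusted p under 0.05 and, in a further alternative chosen after seeing the data, 6 where the mean had to reach 1 FPKM. Where it had to reach 5 FPKM the count was 2 (CRK9 and CRK30). Both minimum levels left fewer members to count, and the share of all genes called at these levels is not given here. No alternative gave a CRK called lower. The median log2 ratio of all listed CRKs ran from 0.19 to 0.28 over its alternatives. That of tandem members was 0.27 with adjacent pairs counted as tandem and 0.25 with a pseudocount of 1 FPKM. At q under 0.01, 0 dispersed members were called. A pseudocount of 1 FPKM moved the log2 ratio of 6 of the 9 called CRKs by over 1.5 times and turned the sign of none. With at least 50% of the locus covered, 3 CRKs had H3K27me3 and 11 H3K4me3; with the better-scoring 50% of peaks, 2 and 10. Near the largest cluster, 0 other genes were called higher within 30 kb and 3 within 100 kb, both added after the data were seen. The cause of these shifts was not tested. No paired analysis was possible because the table holds 1 pooled value per genotype, and for the same reason no library could be left out. Unknown depth limits the lowest members, above all CRK7, CRK4 and CRK26.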

Other observations

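Several WT peaks in the tandem clusters lay between listed CRKs. Members that were not analysed here were placed between listed CRKs by the order of their identifiers alone. Their coordinates were not compared with the peaks. In the largest cluster, 2 of 4 H3K27me3 peaks and 2 of 12 H3K4me3 peaks touched no listed locus. An H3K27me3 peak of 2327 bp (score 72.6) and an H3K4me3 peak of 1364 bp (score 540.5) lay between CRK7 and CRK9. CRK8 falls between these genes by identifier order. A weak H3K27me3 peak of 1229 bp (score 57.7) lay between CRK11 and CRK14. It ended at 12153627, shortly before CRK14, which starts at 12153956. CRK12 and CRK13 fall between CRK11 and CRK14 by identifier order. An H3K4me3 peak of 1081 bp (score 179.3) lay between CRK5 and CRK7, and CRK6 falls between these genes by identifier order. Beyond CRK22, an H3K27me3 peak lay from 67.8 to 74.2 kb after the start of CRK5 (score 60.5). An H3K4me3 peak lay from 67.8 to 69.5 kb (score 98.8). Both preceded AT4G23330, and CRK23 and CRK24 fall between CRK22 and AT4G23330 by identifier order. In the cluster that begins with CRK30, 2 of 3 H3K27me3 peaks lay between CRK30 and CRK34, with scores of 201.9 and 58.9. Both lay nearer to CRK34 than to CRK30. CRK31, CRK32 and CRK33 fall between CRK30 and CRK34 by identifier order. Of the 3 H3K4me3 peaks there, 1 lay over neither CRK (score 96.8) and overlapped AT4G11521, a listed gene inside the span that is not one of the 41 members. Over the span of listed members of the largest cluster, H3K27me3 peaks covered 9.69% and H3K4me3 peaks 31.0% of the bases, and H3K9me2 peaks 0.

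The members not analysed here were CRK1 among the dispersed genes and 15 of the 30 tandem members. Of these 15, 8 belong to the largest cluster (CRK6, CRK8, CRK12, CRK13, CRK15, CRK20, CRK23 and CRK24), 4 to that of CRK40 (CRK36 to CRK39) and 3 to that of CRK30 (CRK31 to CRK33).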
